A study of Homo sapiens with 6 samples.

Results

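The miR-7, miR-9 and miR-129 families, 3 groups of miRNAs best known from the nervous system, were examined in HEK 293T cells with and without the terminal uridylyltransferases TUT4 and TUT7. The members were taken from the count table by name, with earlier results of these data known. They are the 7 mature arms hsa-miR-7-5p, hsa-miR-7-1-3p, hsa-miR-9-5p, hsa-miR-9-3p, hsa-miR-129-5p, hsa-miR-129-1-3p and hsa-miR-129-2-3p, out of 1000 listed mature miRNAs. HEK 293T is a transformed human embryonic kidney line. Small RNA was sequenced from 3 libraries of ΔTUT4/7 cells, which lack TENT3A (TUT4) and TENT3B (TUT7), and from 3 libraries of wild type (WT) cells, grown in the same medium with no treatment. The knockout cells are 1 strain that was made earlier and given to the study, so the loss of the enzymes and anything else that sets this strain apart from the WT stock cannot be told apart. All 7 arms had a highest count above 7 and were tested.

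A miRNA is cut from a hairpin precursor, whose 5p and 3p arms can each be loaded into Argonaute, and bases 2 to 8 of the loaded arm (the seed) pair with target mRNAs. TUT4 and TUT7 add uridines to the 3′ ends of RNAs, including precursors of let-7, where a tail of uridines marks the precursor for decay. miR-7 is abundant in neurons and in endocrine cells of the pancreas, miR-9 is made in neural progenitors and targets the transcriptional repressor REST, and miR-129 is enriched in the brain.

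The mature sequences are shown because they set what the counts can separate: which arms are common to several hairpins, and which arms differ only past the part of the read that was kept. They were read from RefSeq (GRCh38.p14) and are written 5′ to 3′ with the seed in capitals. The last one, the 3p arm of the miR-7-2 hairpin, is given for comparison and has no row among the values used here.
miR-7-5p: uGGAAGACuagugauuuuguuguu
miR-7-1-3p: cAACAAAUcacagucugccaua
miR-9-5p: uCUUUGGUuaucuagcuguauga
miR-9-3p: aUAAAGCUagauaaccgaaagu
miR-129-5p: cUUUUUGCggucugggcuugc
miR-129-1-3p: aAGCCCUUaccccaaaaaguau
miR-129-2-3p: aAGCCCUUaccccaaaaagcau
miR-7-2-3p: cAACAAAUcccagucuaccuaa

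The 7 arms carry 6 seeds. Among the listed miRNAs with a RefSeq sequence, the only pair that includes a member and shares a seed is miR-129-1-3p with miR-129-2-3p, both with AGCCCUU. These arms differ by 1 substitution, U20C, with positions counted from 1 at the 5′ end and the miR-129-1-3p base first. The reads were trimmed to 18 bases, and the first 18 bases of both arms are the same, so if that end of the read was kept, no read could tell them apart. The miR-7-1-3p and miR-7-2-3p arms share a seed and differ by A10C, G17A, A20U and U21A, of which 2 lie within the first 18 bases.

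The hairpins are shown because they give each shared arm its places of origin. Each is written in RefSeq letters on GRCh38.p14 with the mature arms in capitals.
MIR7-2, chr15:88611825-88611934, plus strand: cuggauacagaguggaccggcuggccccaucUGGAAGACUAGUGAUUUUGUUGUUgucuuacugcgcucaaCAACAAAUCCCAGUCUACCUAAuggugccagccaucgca
MIR7-3, chr19:4770670-4770779, plus strand: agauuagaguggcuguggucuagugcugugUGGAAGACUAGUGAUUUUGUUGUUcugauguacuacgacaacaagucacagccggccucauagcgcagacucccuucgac
MIR9-1, chr1:156420341-156420429, minus strand: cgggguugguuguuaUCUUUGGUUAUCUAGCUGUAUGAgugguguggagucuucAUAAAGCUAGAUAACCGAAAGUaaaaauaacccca
MIR129-1, chr7:128207872-128207943, plus strand: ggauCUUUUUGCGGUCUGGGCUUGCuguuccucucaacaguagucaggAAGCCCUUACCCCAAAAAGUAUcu
MIR129-2, chr11:43581394-43581483, plus strand: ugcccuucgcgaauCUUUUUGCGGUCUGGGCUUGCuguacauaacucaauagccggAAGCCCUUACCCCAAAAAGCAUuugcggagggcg

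The first 18 bases of miR-7-5p occur at 3 places in hg38, in MIR7-1, MIR7-2 and MIR7-3. MIR7-1 has its mature arms at chr9:83969771-83969834 on the minus strand, within an exon of at least 1 transcript of HNRNPK, which encodes an RNA-binding protein. MIR7-2 lies between annotated genes, and MIR7-3 lies in an intron of the lncRNA MIR7-3HG. The start of miR-7-1-3p occurs at 1 place only, in MIR7-1, so miR-7-5p can come from 3 hairpins and miR-7-1-3p from 1. Both arms of miR-9 occur at 3 places each, in MIR9-1, in MIR9-2 (chr5:88666853-88666939, minus strand) and in MIR9-3 (chr15:89368017-89368106, plus strand). All 3 overlap exons of lncRNAs on their own strand, MIR9-1HG, LINC00461 and MIR9-3HG. The first 18 bases of miR-129-5p and of both miR-129 3p arms each occur at 2 places, in MIR129-1 and MIR129-2, which lie in introns of lncRNAs. None of the 8 hairpins is on the list of group II precursors named by the study, the precursors said to need 1 added nucleotide before DICER cuts them. The motif GGAG, which LIN28 recognises in let-7 precursors, was looked for on the transcribed strand of the 7 hairpins with a RefSeq sequence. It occurs once each in MIR9-1, MIR9-3 and MIR129-2, of which the MIR9-1 match lies between the arms, against 678 of 1562 RefSeq hairpins (43.4%) and 9 of 11 let-7 hairpins (81.8%).

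The comparison of ΔTUT4/7 with WT cells asked how far the loss of TUT4 and TUT7 moves mature miRNA levels. Both miR-7 arms and all 3 miR-129 arms were higher in ΔTUT4/7 cells, miR-9-5p was lower, and miR-9-3p did not pass the test. miR-7-5p and the miR-129 arms rose by 4.77-fold to 5.67-fold, miR-7-1-3p by 1.68-fold, and miR-9-5p was 2.06-fold higher in WT than in ΔTUT4/7 cells (ratios of mean CPM, 3 libraries each). CPM is the count scaled to the same total in every library. In edgeR's quasi-likelihood test, with p adjusted by the Benjamini-Hochberg method, 5 of the 7 arms passed as higher and 1 as lower at an adjusted p under 0.05. Over all 826 tested miRNAs, 23.2% passed as higher, 21.9% as lower and 45.2% in either direction. With a change of at least 2-fold as well, 4 arms passed as higher and 1 as lower, against 16.5%, 13.6% and 30.0% (either direction) of the tested miRNAs. These counts take miR-129-1-3p and miR-129-2-3p as separate arms, although their reads may not be separable. With both summed as 1, 4 passed as higher, of which 3 were past 2-fold. The libraries of the strains did not overlap for 5 arms that were higher and 1 that was lower, against 28.8%, 29.5% and 58.4%. In bulk libraries, fewer cells that make a miRNA and less of it per cell cannot be told apart.

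**Figure D1:**
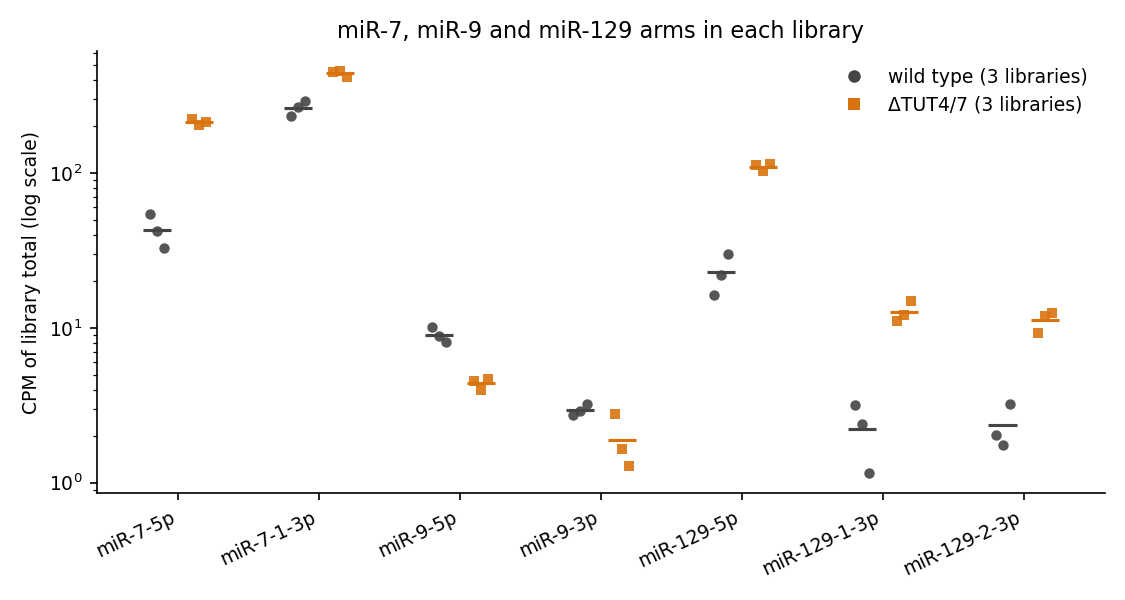
Level of each arm in each library, as CPM of the library total on a log axis, with circles for the 3 WT libraries, squares for the 3 ΔTUT4/7 libraries and a line at each strain's mean. The squares lie above the circles for both miR-7 arms and all 3 miR-129 arms, and below them for miR-9-5p (4.39 against 9.06 CPM on average). For miR-9-3p the square of ΔTUT4/7 replicate 1 lies among the circles and the other squares lie below them.

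miR-7-5p, the arm that 3 hairpins share, measured 223, 205 and 215 CPM in ΔTUT4/7 replicates 1, 2 and 3, and 54.2, 42.3 and 33.0 CPM in WT replicates 1, 2 and 3. Every ΔTUT4/7 library exceeded every WT library, by 3.78-fold to 6.76-fold over the 9 pairs of libraries. The mean was 214 ± 8.97 CPM against 43.1 ± 10.6 CPM (SD, n = 3 each). The log2 fold change was 2.31 (SE 0.20, 95% interval 1.87 to 2.75), with an adjusted p of 2.33e-06 in edgeR's quasi-likelihood test. By mean level the arm stood 147th of 1000 in ΔTUT4/7 and 244th in WT cells.

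miR-7-1-3p, the opposite arm of the MIR7-1 hairpin, measured 450.1, 457 and 419.5 CPM in the ΔTUT4/7 libraries and 233, 267 and 291 CPM in the WT libraries. The strains did not overlap here either, but the lowest ΔTUT4/7 library was only 1.44-fold above the highest WT library. Its mean was 442 ± 19.8 against 264 ± 28.8 CPM (SD, n = 3 each). This came to 0.75 on the log2 scale (SE 0.15, 95% interval 0.42 to 1.07), with an adjusted p of 0.00182 in edgeR's quasi-likelihood test. miR-7-1-3p was thus the more abundant of the listed miR-7 arms in every library, and its 95% interval does not meet that of miR-7-5p.

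miR-9-5p, the arm best known from neural progenitors, was scarce in both strains. It measured 4.53, 3.95 and 4.69 CPM in ΔTUT4/7 replicates 1, 2 and 3 (23, 19 and 22 counts), and 10.2, 8.91 and 8.07 CPM in the WT replicates (45, 71 and 35 counts). All 3 ΔTUT4/7 libraries lay below all 3 WT libraries. The mean fell from 9.06 ± 1.07 CPM in WT to 4.39 ± 0.390 CPM in ΔTUT4/7 cells (SD, n = 3 each). The log2 fold change was -1.04 (SE 0.26, 95% interval -1.61 to -0.48), with an adjusted p of 0.00599 in edgeR's quasi-likelihood test. The adjusted p stayed under 0.05 in all 16 alternatives, but the size was under 2-fold in 5 of them, so the call at 2-fold depends on the setting.

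Of the set of markers of other cell types, 4 arms of blood, liver and red cells were listed, and 3 passed as lower in ΔTUT4/7 cells. The muscle markers of the set and its blood marker miR-223 had no row among the values used here. The blood marker miR-142, as both arms summed, was at 32.4 to 37.6 CPM in ΔTUT4/7 and 52.2 to 102 CPM in WT libraries, above miR-9-5p in both strains. Liver miR-122-5p was at 0.208 to 0.788 and 1.13 to 1.76 CPM, and red cell miR-451a, whose counts were too low to be tested, at 0.416 to 0.640 and 0.628 to 1.13 CPM. The strains overlapped for miR-451a. In edgeR's quasi-likelihood test the other 3 arms passed as lower, with log2 fold changes of -1.05 for miR-142-3p (adjusted p 0.00425), -1.25 for miR-142-5p (adjusted p 0.0259) and -1.63 for miR-122-5p (adjusted p 0.0491). Over all tested miRNAs, 21.9% passed as lower. The muscle miRNA miR-133b, outside this set and named after its values were seen, went the other way. Its log2 fold change was 1.11 (adjusted p 0.0153 in the same test). None of the 4 marker arms was at 0 in all libraries, and their sum was 33.5 to 39.0 CPM in ΔTUT4/7 and 54.6 to 104 CPM in WT libraries. Their part in the result for miR-9-5p was not tested.

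miR-9-3p, the opposite arm of the same 3 hairpins, measured 2.76, 1.66 and 1.28 CPM in the ΔTUT4/7 libraries (14, 8 and 6 counts) and 2.72, 2.89 and 3.23 CPM in the WT libraries (12, 23 and 14 counts). ΔTUT4/7 replicate 1 lay within the WT range and the other ΔTUT4/7 libraries lay below it. The mean was 1.90 ± 0.768 against 2.94 ± 0.258 CPM (SD, n = 3 each), and the log2 fold change was -0.61 (SE 0.39, 95% interval -1.47 to 0.23), with an adjusted p of 0.209 in edgeR's quasi-likelihood test. That interval holds both no change and the change of miR-9-5p, so at 28 counts in ΔTUT4/7 and 49 in WT cells a change of the miR-9-5p size could not be told from none.

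miR-129-5p, common to both miR-129 hairpins, measured 112, 103 and 115 CPM in the ΔTUT4/7 libraries and 16.3, 22.0 and 30.2 CPM in the WT libraries. Every ΔTUT4/7 library was above every WT library, by 3.40-fold to 7.07-fold. The mean was 109.9 ± 6.50 against 22.8 ± 6.98 CPM (SD, n = 3 each). The log2 fold change was 2.27 (SE 0.23, 95% interval 1.78 to 2.76), with an adjusted p of 8.04e-06 in edgeR's quasi-likelihood test. It moved from 310th of 1000 by mean level in WT to 181st in ΔTUT4/7 cells.

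The 3p arms of miR-129 are named for 1 hairpin each. miR-129-1-3p measured 11.0, 12.1 and 14.9 CPM in the ΔTUT4/7 libraries (56, 58 and 70 counts), and 3.17, 2.38 and 1.15 CPM in the WT libraries (14, 19 and 5 counts). miR-129-2-3p measured 9.26, 11.9 and 12.4 CPM in the ΔTUT4/7 libraries (47, 57 and 58 counts) and 2.04, 1.76 and 3.23 CPM in the WT libraries (9, 14 and 14 counts). For neither arm did the strains overlap. The log2 fold change was 2.47 (SE 0.33, 95% interval 1.76 to 3.21) for miR-129-1-3p and 2.29 (SE 0.31, 95% interval 1.62 to 2.98) for miR-129-2-3p. Their adjusted p in edgeR's quasi-likelihood test was 0.000103 and 0.000114. Because the first 18 bases of both arms are the same, how the authors' estimation divided their reads is not known, and with both arms summed the log2 fold change was 2.39 (SE 0.24, adjusted p 7.14e-06 in the same test).

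**Figure D2:**
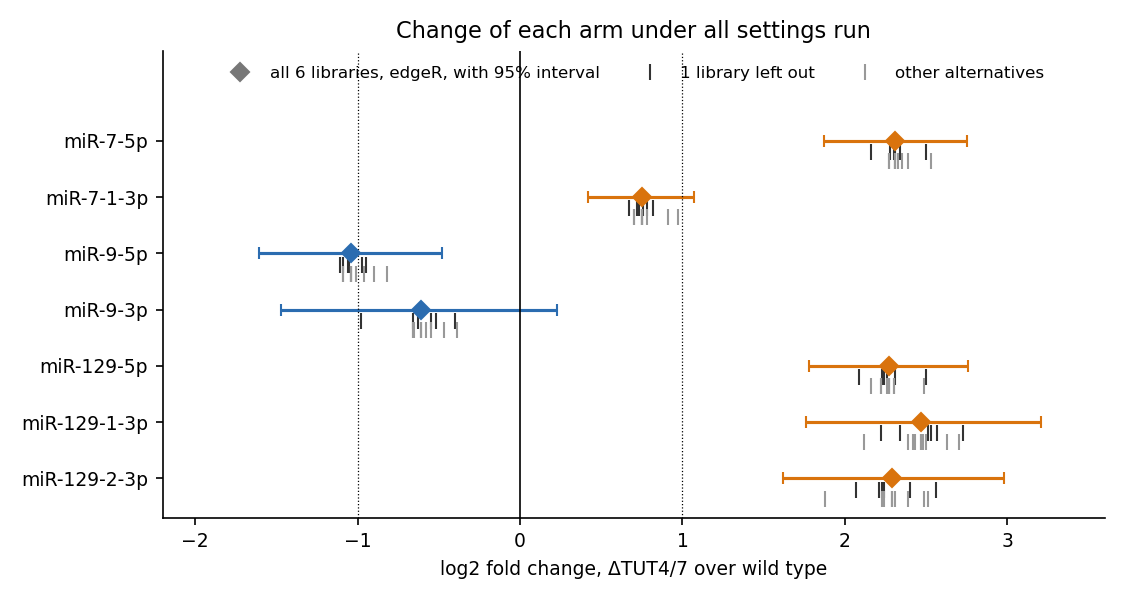
Log2 fold change of each arm, ΔTUT4/7 over WT, where diamonds with bars are the estimate from all 6 libraries with its 95% interval, dark ticks leave out 1 library each, grey ticks are the other alternatives and dotted lines mark 2-fold. The 4 arms near 2.3 stayed above 1 in every alternative, miR-7-1-3p stayed between 0.67 and 0.97, and miR-9-5p lay on both sides of -1.

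In the order of levels in ΔTUT4/7 cells, miR-7-1-3p came first (442 CPM), then miR-7-5p (214 CPM), miR-129-5p (109.9 CPM), miR-129-1-3p (12.7 CPM), miR-129-2-3p (11.2 CPM), miR-9-5p (4.39 CPM) and miR-9-3p (1.90 CPM). The libraries of miR-129-1-3p and miR-129-2-3p overlapped there, and no other neighbours in that order did. In WT cells the order was miR-7-1-3p (264 CPM), miR-7-5p (43.1 CPM), miR-129-5p (22.8 CPM), miR-9-5p (9.06 CPM), miR-9-3p (2.94 CPM), miR-129-2-3p (2.34 CPM) and miR-129-1-3p (2.24 CPM). The libraries of the last 3 overlapped with each other. The miR-129 3p arms, which overlapped with miR-9-3p in WT cells, stood above miR-9-5p in every ΔTUT4/7 library. The 7 arms together came to 812, 794 and 783 CPM in the ΔTUT4/7 libraries and to 322, 347 and 369 CPM in the WT libraries, or 796 ± 14.7 against 346 ± 23.8 CPM (SD, n = 3 each). Levels of different arms are compared here as reads, and ligation and amplification can differ between sequences.

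The spread between libraries differed between the strains. The coefficient of variation (SD over mean) of miR-7-5p was 4.19% in ΔTUT4/7 and 24.6% in WT cells, where counting error alone would give 3.10% and 6.76%. For miR-129-5p it was 5.91% and 30.6%, against 4.33% and 9.36% from counting. The WT spread of these arms therefore exceeded their counting error, with miR-7-5p highest in WT replicate 1, where miR-129-5p was lowest, and lowest in WT replicate 3, where miR-129-5p was highest. The miR-9-5p values spread less than counting error would give (8.89% against 21.7% in ΔTUT4/7, 11.9% against 14.6% in WT cells). For miR-9-3p the larger spread was in ΔTUT4/7 cells, at 40.4% against 34.3% from counting. In WT cells it was 8.78%, against 25.5% from counting.

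The balance of the arms within a library does not depend on how libraries are scaled. For miR-7, the shared 5p arm was 0.495, 0.449 and 0.512 times the MIR7-1-specific 3p arm in ΔTUT4/7 replicates 1, 2 and 3, and 0.232, 0.159 and 0.113 times in the WT replicates. Every ΔTUT4/7 ratio was above every WT ratio, so miR-7-5p gained on miR-7-1-3p within the libraries. On the log2 scale, with 0.5 added to each count, the ratio was -1.05 ± 0.10 in ΔTUT4/7 and -2.63 ± 0.52 in WT cells (SD, n = 3 each). The difference of 1.59 (SE 0.30) had a 2-sided exact permutation p of 0.10, the smallest that 3 libraries against 3 allow, and 0.400 after Benjamini-Hochberg adjustment over the 8 ratios compared, so this test cannot reach 0.05 here.

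For miR-9, where both arms are shared by the same 3 hairpins, the 5p arm was 1.64, 2.38 and 3.67 times the 3p arm in ΔTUT4/7 and 3.75, 3.09 and 2.50 times in WT libraries. These ranges overlapped, and the log2 difference was -0.36 (SE 0.36, 2-sided exact permutation p 0.400). For miR-129, the 5p arm was 5.50, 4.30 and 4.23 times the sum of both 3p arms in ΔTUT4/7 and 3.13, 5.30 and 6.89 times in WT libraries. The log2 difference was -0.05 (SE 0.35, 2-sided exact permutation p 1.00), and the WT ratios enclosed all 3 ΔTUT4/7 ratios. miR-129-1-3p over miR-129-2-3p was 1.19, 1.02 and 1.21 in ΔTUT4/7 and 1.56, 1.36 and 0.357 in WT libraries. The low value came from WT replicate 3, which had 5 and 14 counts.

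**Figure D3:**
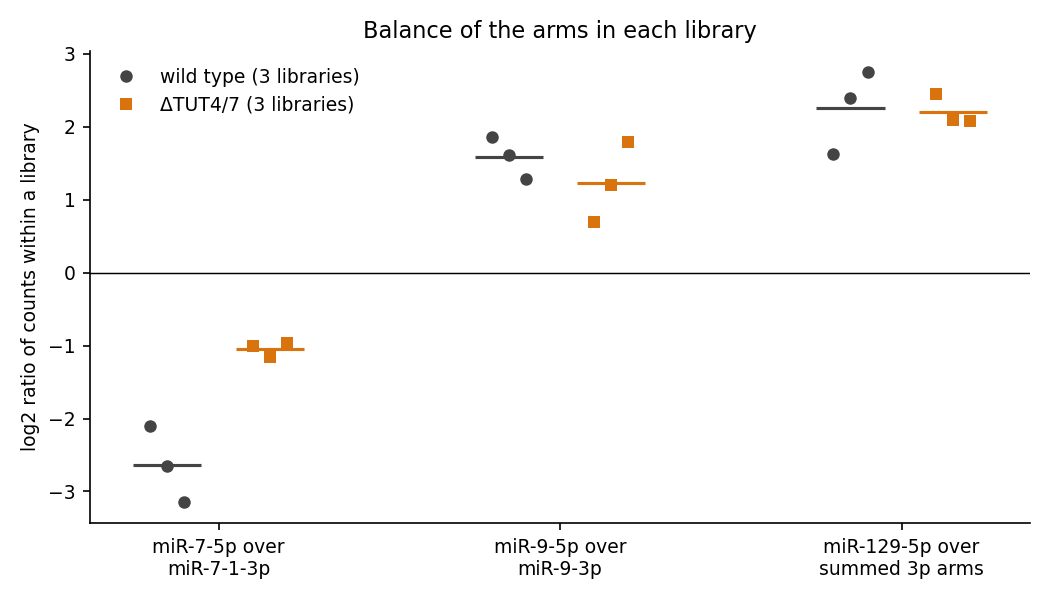
Ratio of the arms of each family within a library, on the log2 scale, with circles for the 3 WT libraries, squares for the 3 ΔTUT4/7 libraries and a line at each strain's mean. The miR-7 ratio lay near -1 in ΔTUT4/7 and between -3.14 and -2.10 in WT libraries, while the strains overlapped for miR-9 and miR-129.

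Across families, miR-7-5p was 49.1, 51.8 and 45.8 times miR-9-5p in the ΔTUT4/7 libraries and 5.31, 4.75 and 4.09 times in the WT libraries. This was the largest shift among the 8 ratios, a log2 difference of 3.36 (SE 0.12, 2-sided exact permutation p 0.10, adjusted 0.400). miR-7-5p was 2.00, 1.99 and 1.86 times miR-129-5p in the ΔTUT4/7 libraries and 3.32, 1.93 and 1.09 times in the WT libraries. These shared arms of different families kept a nearly constant ratio among the ΔTUT4/7 libraries, with a log2 difference between strains of 0.03 (SE 0.46, 2-sided exact permutation p 0.800).

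Other miRNAs made from several hairpins give a measure for the gap between the miR-7 arms. The tested table holds 31 pairs of a shared arm with an opposite arm named for 1 hairpin, from 20 shared arms. The log2 fold change of miR-7-5p less that of miR-7-1-3p was 1.56, the 3rd highest of the 31 differences, while miR-129-5p stood at -0.02 against miR-129-2-3p and at -0.21 against miR-129-1-3p. In the 28 other pairs the median difference was -0.37 and the median size 0.61, and 8 exceeded 1 in size. Among the 19 other pairs with both arms at 10 CPM or more, 1 shared arm had a higher log2 fold change than its specific arm. This was miR-196a-5p, where both arms fell and the shared arm fell less (-1.16 against -7.33).

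The pairs past miR-7 at the upper end were those of miR-196a-5p and miR-218-5p. miR-196a-1-3p, from a HOX cluster, had 1, 1 and 2 counts in the ΔTUT4/7 libraries and 192, 466 and 180 counts in the WT libraries, and the difference of its pair was 6.17. miR-218-2-3p had no count in any ΔTUT4/7 library and 1, 8 and 9 counts in the WT libraries, which gives at least 5.35-fold lower against a floor of 3 counts over the 3 libraries, and a difference of the pair of at least 2.27. At the lower end, let-7f-1-3p had 100, 119 and 99 counts in ΔTUT4/7 and 1, 3 and 3 in WT libraries, with a difference of -4.23. miR-19b-2-5p had 21 counts in ΔTUT4/7 and 2 in WT cells, a ratio of 12.0 per total count (exact 95% interval 2.94 to 106, counting error only), and a difference of -2.68. The specific arms of these pairs thus had few counts in 1 strain. The changes of miR-196a-1-3p and let-7f-1-3p still passed edgeR's quasi-likelihood test, with adjusted p of 1.66e-08 and 1.31e-07. Both miR-7 arms had at least 143 counts in every library.

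**Figure D4:**
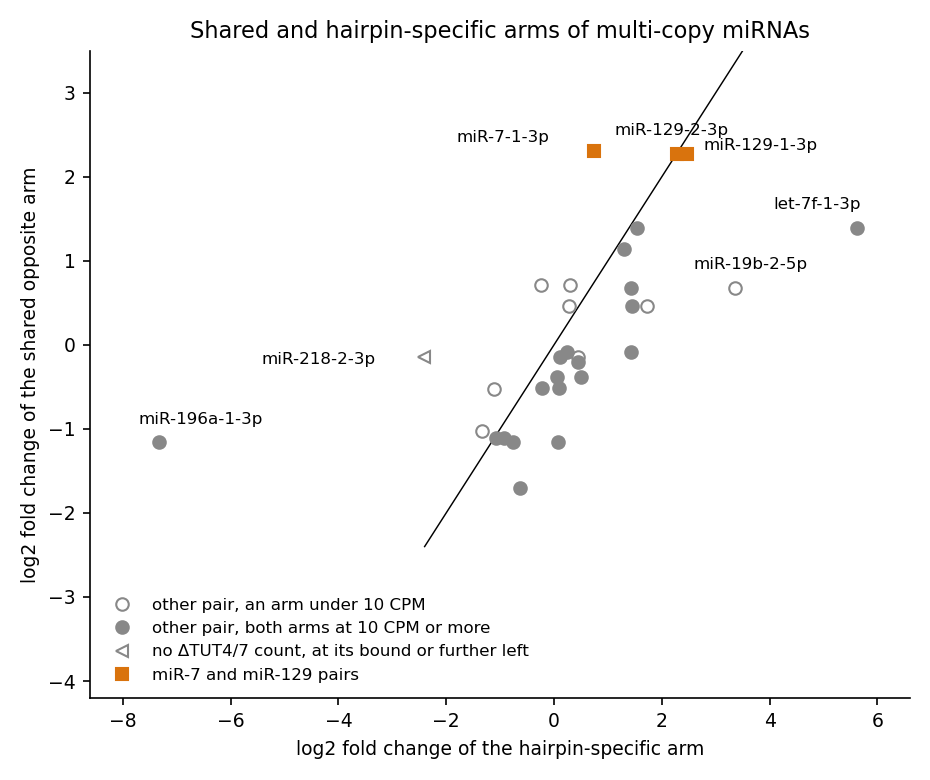
Log2 fold change (ΔTUT4/7 over WT) of the shared arm against that of the hairpin-specific opposite arm for the 31 multi-copy pairs, with the line of equal change, and with miR-218-2-3p, which had no ΔTUT4/7 count, as a triangle at its bound. The miR-129 pairs lie on the line and the miR-7 pair lies 1.56 above it, on the side where 7 of the 28 other pairs lie.

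In the order of log2 fold changes over all 826 tested miRNAs, miR-129-1-3p stood 38th, miR-7-5p 42nd, miR-129-2-3p 45th and miR-129-5p 46th from the top. miR-7-1-3p stood 219th, miR-9-3p 587th and miR-9-5p 686th. The miRNAs most like 3 of the members over the 6 libraries were found by the root mean square (RMS) distance between log2(CPM + 1) values, each less its own mean, among 388 other miRNAs with a mean of at least 10 CPM. With the strain difference in every profile, a small distance mainly says that the sizes of the change are alike.

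Nearest to miR-7-5p was miR-4326, with 145 ± 10.4 against 29.8 ± 10.6 CPM and a distance of 0.15, followed by miR-3176 and miR-18a-3p, both at 0.25. Nearest to miR-129-5p were miR-98-5p at 0.18, let-7g-5p at 0.24 and miR-98-3p at 0.32, all of the let-7 family. miR-98-5p measured 1539 ± 81.3 CPM in ΔTUT4/7 and 320.0 ± 87.8 CPM in WT cells, and its log2 fold change of 2.27 was that of miR-129-5p. Nearest to miR-9-5p were miR-450b-5p at 0.09, miR-30c-2-3p at 0.11 and miR-10b-5p at 0.13, with log2 fold changes of -0.79, -0.76 and -0.87. Among the members themselves, miR-129-1-3p lay 0.19 from miR-7-5p, with 1 of the 388 miRNAs nearer, and miR-129-2-3p lay 0.28 from miR-129-5p, with 2 nearer. How reads were divided between these miR-129 3p arms is not known, so their separate distances cannot be read as a difference between hairpins. miR-9-3p lay 0.34 from miR-9-5p, with 89 nearer, and miR-7-1-3p lay 0.84 from miR-7-5p, with 69 nearer.

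**Figure D5:**
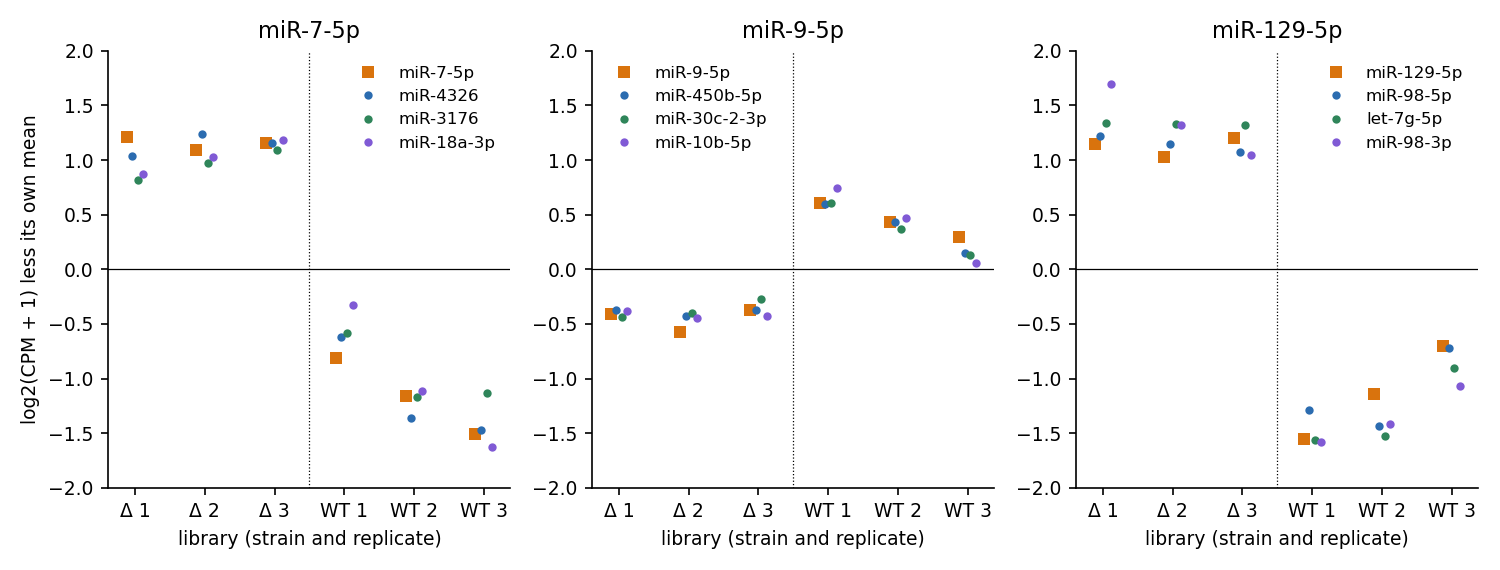
Values of log2(CPM + 1) less each miRNA's own mean in the 6 libraries (ΔTUT4/7 replicates 1 to 3, then WT replicates 1 to 3) for miR-7-5p, miR-9-5p and miR-129-5p (squares) and the 3 miRNAs nearest to each (circles). In WT cells miR-7-5p and its neighbours were highest in replicate 1, while miR-129-5p and its neighbours were highest in replicate 3.

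Other miRNAs known as enriched in brain were taken as a list of 14 stem names, of which 12 had a listed arm, with 20 arms in all and 17 tested. Of these, 4 passed as higher, 2 as lower and 11 did not pass in edgeR's quasi-likelihood test, that is 23.5% higher and 11.8% lower, beside 23.2% and 21.9% of all tested miRNAs. Their median log2 fold change was 0.29, beside 0.01 over all tested miRNAs. Past 2-fold were miR-134-5p and miR-218-2-3p. miR-134-5p, known from dendrites, had 11, 15 and 15 counts in the ΔTUT4/7 libraries and 1, 3 and 3 in the WT libraries, a log2 fold change of 2.68 (SE 0.54, adjusted p 0.00162 in edgeR's quasi-likelihood test). For miR-218-2-3p the test was no longer passed without WT replicate 2 (at least 5.59-fold lower, adjusted p 0.0530) and without WT replicate 3 (at least 2.99-fold lower, adjusted p 0.0517) in the same test. The other arms that passed stayed under 2-fold, at a log2 fold change of 0.97 for miR-132-5p, 0.76 for miR-212-3p, 0.71 for miR-138-5p and -0.76 for miR-338-3p. The most abundant arms of the list did not pass, with 24244 ± 381 against 26903 ± 1686 CPM for miR-218-5p and 4161 ± 53.7 against 4785 ± 228 CPM for miR-128-3p (SD, n = 3 each). The median of all miRNAs moved from 0.01 to 0.23 when let-7 and miR-98 were left out of the library totals, and 7 arms of the list then passed as higher. miR-124, the miRNA that best marks neurons, is on the list but had no row among the values used here.

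Total counts on mature miRNAs ranged from 4338558 to 7967606 over the 6 libraries. The counts of miR-16-5p, named only for this, stand as 1060000, 2230000 and 1020000 in WT replicates 1, 2 and 3. These appear rounded, so the WT totals and the CPM taken over them are approximate. The levels of TUT4 and TUT7 themselves were not measured by these counts.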

How the data were processed

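Reads from QIAseq miRNA libraries were trimmed to 18 bp by the authors and aligned to hg38 with Bowtie 1.0.0 in Partek Flow (Partek 10.0.22). The deposited values are estimated counts on the mature miRNAs of miRBase, from the expectation-maximization model of Partek, and are whole numbers. Which end of the read was kept, and whether unique molecular identifiers were used, is not stated in the labels or methods. The exact interval of miR-19b-2-5p covers counting error only, while the intervals from edgeR also take in the spread between libraries. The table lists each shared arm at 1 of its genomic locations. The authors' own comparison (p-values, FDR, ratio, fold change and strain means) was not used.

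Strains were taken from the labels, and CPM was taken over the library total of the values as given (4338558 to 7967606 counts). edgeR 4.0.16 (quasi-likelihood test) was applied to miRNAs whose highest count exceeded 7, in R 4.3.3 (all 6 libraries, factors of 1, common dispersion 0.0358), with Benjamini-Hochberg adjustment over 826 miRNAs. The libraries are labelled as biological replicates, but how far they were grown apart is not stated, and p-values measure the spread between these libraries. Ratios of arms were compared by a 2-sided exact permutation test. The alternatives were TMM and RLE factors, let-7 and miR-98 left out of the totals, DESeq2 1.42.0, limma 3.58.1 with a trend on log2(CPM + 1), tables with no filter or filterByExpr, the replicate number as a block, each library left out, and sums of miRNAs that share their first 18 bases. Removal of a GC trend (lowess, span 0.5) was chosen after seeing the data.

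Sequences were taken from RefSeq tables (GRCh38.p14) and host genes from GENCODE 44. Of the 1000 listed miRNAs, 897 had a RefSeq mature sequence, and in all 897 its first 18 bases were the same in hg38 at the listed location. The text names the 7 members, listed miRNAs sharing a seed or first 18 bases with one, the list arms past 2-fold whose strains did not overlap, the 3 nearest profiles, and the 2 most divergent multi-copy pairs each way. The members, the lists and this rule were chosen with earlier results of these data known. The list arms under 2-fold were named after their values were seen. Figures were drawn with Python 3.11.15 and matplotlib 3.10.9.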

Additional observations from a re-analysis of the deposited data

How the results depend on the processing

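All 7 arms kept their direction and their side of the adjusted p of 0.05 in all 16 alternatives. With miRNAs that share their first 18 bases summed, both miR-129 3p arms became 1 row. The count passing as higher then went from 5 to 4, and the count also past 2-fold from 4 to 3. Without 1 library each, the log2 fold change was 2.16 to 2.50 for miR-7-5p, 0.67 to 0.82 for miR-7-1-3p, -1.11 to -0.95 for miR-9-5p, -0.98 to -0.40 for miR-9-3p (adjusted p 0.0908 to 0.452 over all alternatives, edgeR, DESeq2 and limma), 2.09 to 2.50 for miR-129-5p, 2.22 to 2.73 for miR-129-1-3p and 2.07 to 2.56 for miR-129-2-3p. The count of arms past 2-fold and lower fell from 1 to 0 where miR-9-5p came under 2-fold: with let-7 and miR-98 left out of the totals (-0.82), without ΔTUT4/7 replicate 2 (-0.97), without WT replicate 1 (-0.95), with limma-trend on log2(CPM + 1) (-0.90) and with the GC trend removed (-0.96). With those totals, the share of 2-fold calls that were higher moved from 54.8% to 69.3%, and the brain-enriched arms that passed as higher from 4 to 7. Those that passed as lower went from 2 to 1 with filterByExpr, without WT replicate 2 and without WT replicate 3. Without 1 library each, the difference of arms was 1.33 to 1.85 for miR-7, -0.64 to -0.09 for miR-9 and -0.36 to 0.20 for miR-129. Deviations from the strain mean had Pearson correlations of -0.17, -0.18 and -0.27 between same-numbered libraries of the strains (372 miRNAs). Between libraries with unlike numbers they were -0.13 to 0.21. Deviations of 3 libraries from their own mean are tied to each other, so these values cannot decide whether the numbers pair libraries. With the replicate number as a block the log2 fold changes were 2.33, 0.75, -1.04, -0.65, 2.30, 2.48 and 2.29 (miR-7-5p, miR-7-1-3p, miR-9-5p, miR-9-3p, miR-129-5p, miR-129-1-3p and miR-129-2-3p), with the same calls.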
